A study of Homo sapiens with 8 samples.

Results

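The genes described here are LY96, CD14, TLR4, TLR1, TLR2, TLR5, TLR6, TLR8, MYD88 and TICAM2, which encode the parts of the lipopolysaccharide receptor, 5 other Toll-like receptors and a pair of adaptors. They were chosen by name as receptor and adaptor genes of this system, with earlier results of these data known. All 10 were found among the 33045 gene names of the deposited count table. Toll-like receptors are membrane proteins with which myeloid cells sense microbial molecules. Lipopolysaccharide is handed by CD14 to a complex of TLR4 and LY96 (also called MD-2), TLR2 pairs with TLR1 or TLR6 to bind bacterial lipopeptides, TLR5 binds flagellin, and TLR8 binds single-stranded RNA in endosomes. The adaptor MYD88 carries the signal of these receptors towards NF-kB, while TICAM2 (also called TRAM) links TLR4 in endosomes to the interferon branch. In monocytes and macrophages this set is part of the mature cell's equipment.

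RNA-seq was made from 2 human acute myeloid leukaemia lines, KASUMI-1, which the submitters call sensitive to inhibition of the histone demethylase LSD1, and THP-1, which they call resistant. KASUMI-1 carries the RUNX1::RUNX1T1 fusion, and THP-1 is a monocytic line with a KMT2A fusion. Cells were given vehicle or the LSD1 inhibitor DDP38003 at 0.5 µM and were sampled after 6 and 72 h in KASUMI-1 and after 24 and 72 h in THP-1, which makes 8 conditions with 1 library each. The series set these times around regulation of mTOR that followed LSD1 inhibition. The 4 pairs of inhibitor and vehicle libraries share line and time. Whether the libraries stem from separate cultures is not stated in the labels, so a p-value measures only the spread between these libraries, which may be technical. In each line the inhibitor effect rests on 2 pairs taken at different times, and a real change of the response with time therefore counts as spread.

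The libraries held 23722972 to 45970766 reads counted in genes, the shallowest being the KASUMI-1 vehicle library at 72 h and the deepest the KASUMI-1 inhibitor library at 72 h. At these depths 3 reads, used as the detection floor, were worth between 0.0653 and 0.1265 CPM (reads scaled to a common library size) before further scaling. The 4 myeloid markers CD33, SPI1, MPO and PTPRC were above 1 CPM in every library of both lines. RUNX1T1, CD34 and KIT were above 1 CPM in all KASUMI-1 libraries, and HOXA9, HOXA10 and HOXA7 in all THP-1 libraries. KIT was also above 1 CPM in every THP-1 library, and HOXA10 in every KASUMI-1 library. Erythroid markers summed to at most 0.022 CPM and fibroblast markers to at most 0.223 CPM. In KASUMI-1 the epithelial marker EPCAM carried a summed level of 127 to 166 CPM, the T cell list reached 14.3 to 17.6 CPM and the B cell list 34.4 to 74.2 CPM, whereas none of these lists passed 5.2 CPM in THP-1. Among these markers the inhibitor moved CD79B by -0.70 in KASUMI-1 (edgeR, adjusted p = 0.00327) and by 0.58 in THP-1 (adjusted p = 0.0476), and KIT by -2.11 in THP-1 (adjusted p = 1.78e-05), on the log2 scale. CD2 was also called higher in THP-1 (adjusted p = 0.00321), with 0 vehicle reads and 15 and 6 inhibitor reads at 24 and 72 h. The part of these markers in the results below was not tested.

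Levels are given as CPM after TMM scaling (trimmed mean of M-values, which balances libraries of different make-up). Where genes are compared with each other the level is CPM per kilobase of counted exon. Fold ratios within a pair carry an exact 95% interval that covers counting error only. Where vehicle and inhibitor libraries of a line are said not to overlap, only 2 stand on each side. Such a separation arises readily without any change, and its share over all genes was not counted. Fitted changes are log2 values with an approximate standard error (SE) from edgeR's quasi-likelihood test, and p-values were adjusted by Benjamini-Hochberg over 16060 genes, with 0.05 as the threshold. These are bulk libraries, so a change in the number of cells that carry a transcript and a change in the amount per cell cannot be told apart.

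The promoters of 4 receptor genes are shown first. TLR8, CD14 and TLR6 were called higher with the inhibitor in THP-1, while TLR4 was not called in either line. These 4 are a selection. TLR5, MYD88 and TICAM2, also called higher in THP-1, and TLR2, not called there, are not printed. The windows of TLR5, TICAM2 and TLR2 hold neither motif marked below, and that of MYD88 holds GAGGAA. Each window runs from 250 bases before the annotated start to 50 after it, 5′ to 3′ on the gene's strand, from RefSeq on GRCh38.p14. TLR8 lies at chrX:12906370-12906669 (plus strand), CD14 at chr5:140633126-140633425 (minus strand), TLR6 at chr4:38856768-38857067 (minus strand) and TLR4 at chr9:117704153-117704452 (plus strand). Capitals mark AAATCA, part of the motif of GFI1, a repressor that recruits LSD1, and GAGGAA, the core bound by the myeloid factor PU.1, each on either strand.
TLR8: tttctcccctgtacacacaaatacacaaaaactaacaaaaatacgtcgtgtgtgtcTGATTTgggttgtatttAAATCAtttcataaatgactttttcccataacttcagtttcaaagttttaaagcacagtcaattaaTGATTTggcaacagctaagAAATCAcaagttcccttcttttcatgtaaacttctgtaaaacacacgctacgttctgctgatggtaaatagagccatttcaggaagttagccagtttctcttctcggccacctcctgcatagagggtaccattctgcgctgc
CD14: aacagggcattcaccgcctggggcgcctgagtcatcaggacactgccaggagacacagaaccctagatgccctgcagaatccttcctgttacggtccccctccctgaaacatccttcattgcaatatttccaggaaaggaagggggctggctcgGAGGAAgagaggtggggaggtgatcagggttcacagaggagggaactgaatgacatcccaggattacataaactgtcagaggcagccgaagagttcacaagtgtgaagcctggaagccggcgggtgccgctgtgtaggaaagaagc
TLR6: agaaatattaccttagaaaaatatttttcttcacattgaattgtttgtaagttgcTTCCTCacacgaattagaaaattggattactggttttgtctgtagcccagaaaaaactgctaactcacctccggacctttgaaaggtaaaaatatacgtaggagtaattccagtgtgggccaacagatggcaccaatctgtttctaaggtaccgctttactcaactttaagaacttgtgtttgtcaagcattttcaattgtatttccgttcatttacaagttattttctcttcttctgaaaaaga
TLR4: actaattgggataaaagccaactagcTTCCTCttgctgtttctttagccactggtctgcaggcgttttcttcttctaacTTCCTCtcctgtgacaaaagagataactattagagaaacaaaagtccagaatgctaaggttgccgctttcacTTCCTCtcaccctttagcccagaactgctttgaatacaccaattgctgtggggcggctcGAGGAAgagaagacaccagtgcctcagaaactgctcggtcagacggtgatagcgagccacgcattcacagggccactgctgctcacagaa

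The RefSeq table held a promoter for 8 of the 10 genes, LY96 and TLR1 having no entry. The TLR8 window held 4 matches to AAATCA on the strands searched, and the other 7 windows held no match. Of 27305 promoters of the same length, 13.3% held at least 1 match and 0.033% held 4 or more; the count of 4 was singled out after the matches were seen. GAGGAA was found in CD14, TLR6, TLR4 and MYD88, against 27.6% of all promoters. The TLR4 window held 4 of these, a number reached by 0.0952% of promoters and likewise picked after the matches were seen. TTNCNNAA, a C/EBP motif, was found in CD14, TLR6 and TLR8 (37.2% of all promoters), and 1 of its matches in TLR8 overlapped an AAATCA match. The NF-kB motif (1.92% of all promoters) and TATAAA (12%) had no match in the 8 windows. A match describes letters only and says nothing of occupancy.

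Of the lipopolysaccharide receptor genes, LY96 rose in both lines, CD14 rose in THP-1, and TLR4 passed the test in neither. LY96 (NCBI36 chr8:75066141-75103859, plus strand) encodes the secreted partner that holds lipopolysaccharide in the TLR4 complex. It had 7 reads (0.184 CPM) with vehicle and 119 reads (3.03 CPM) with inhibitor in KASUMI-1 at 6 h. At 72 h the same line had 3 reads (0.133 CPM) and 268 reads (6.53 CPM). THP-1 had 20 reads (0.42 CPM) and 785 reads (17.5 CPM) at 24 h, then 3 reads (0.0712 CPM) and 572 reads (16.2 CPM) at 72 h. All 4 vehicle libraries were at 0.42 CPM or less and all 4 inhibitor libraries at 3.03 CPM or more, without overlap in either line.

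The ratio of LY96 with inhibitor to vehicle was 16.5 (7.75 to 41.9) in KASUMI-1 at 6 h and 48.9 (16.5 to 239) at 72 h. In THP-1 it was 41.7 (26.8 to 68.7) at 24 h and 227 (77.2 to 1100) at 72 h. The 72 h ratios of both lines rest on 3 vehicle reads, which is at the floor. The fitted change of LY96 was 4.68 ± 0.43 in KASUMI-1 (edgeR, adjusted p = 2.2e-06) and 6.07 ± 0.34 in THP-1 (adjusted p = 1.44e-09), each higher in 2 of 2 pairs. Both calls were kept under every alternative run, with fitted values of 4.02 to 5.58 in KASUMI-1 and 5.36 to 7.74 in THP-1 when 1 pair was left out.

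CD14 (NCBI36 chr5:139991501-139993439, minus strand), the receptor that transfers lipopolysaccharide and marks monocytes, was almost absent from KASUMI-1. That line had 0 and 0 reads at 6 h with vehicle and inhibitor, and 2 and 1 reads at 72 h, all at or under the floor, so no fold is given there. In THP-1 it had 37 reads (0.778 CPM) with vehicle and 150 reads (3.35 CPM) with inhibitor at 24 h, and 24 reads (0.57 CPM) and 135 reads (3.81 CPM) at 72 h. Both THP-1 inhibitor libraries were above both vehicle libraries. The ratios were 4.31 (2.99 to 6.36) at 24 h and 6.69 (4.31 to 10.8) at 72 h, and the fitted change was 2.40 ± 0.30 (edgeR, adjusted p = 3.35e-05), kept under every alternative run.

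TLR4 (NCBI36 chr9:119506291-119519589, plus strand), the signalling receptor of the complex, differed far more between the lines than between agents. In KASUMI-1 it had 4.99 CPM with vehicle and 4.96 CPM with inhibitor at 6 h, then 3.43 and 2.48 CPM at 72 h. In THP-1 it had 24.1 and 23.2 CPM at 24 h, then 26.9 and 38.6 CPM at 72 h. Vehicle and inhibitor libraries overlapped in both lines. Its fitted change was -0.20 ± 0.20 in KASUMI-1 (edgeR, adjusted p = 0.579) and 0.23 ± 0.16 in THP-1 (adjusted p = 0.494). By counting error alone the single pairs were not alike, the ratio being 0.725 (0.534 to 0.988) in KASUMI-1 at 72 h and 1.44 (1.33 to 1.56) in THP-1 at 72 h, and no replicate of either pair tests this.

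The ratio of LY96 to TLR4 transcripts within a library, per kilobase, changed sides with the inhibitor. It was 0.36 (0.143 to 0.756) with vehicle and 5.96 (4.71 to 7.53) with inhibitor in KASUMI-1 at 6 h, and 0.381 (0.0768 to 1.15) and 25.7 (20.4 to 32.6) at 72 h. In THP-1 it was 0.17 (0.103 to 0.264) and 7.39 (6.73 to 8.12) at 24 h, and 0.0259 (0.00534 to 0.0759) and 4.09 (3.70 to 4.51) at 72 h. TLR4 was the more abundant transcript in the 4 vehicle libraries, the interval of the KASUMI-1 vehicle library at 72 h reaching past 1, and LY96 was the more abundant in all 4 inhibitor libraries. CD14 stayed under TLR4 in every library, with per-kilobase ratios in THP-1 of 0.106 and 0.07 with vehicle and 0.477 and 0.326 with inhibitor at 24 and 72 h.

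**Figure D1:**
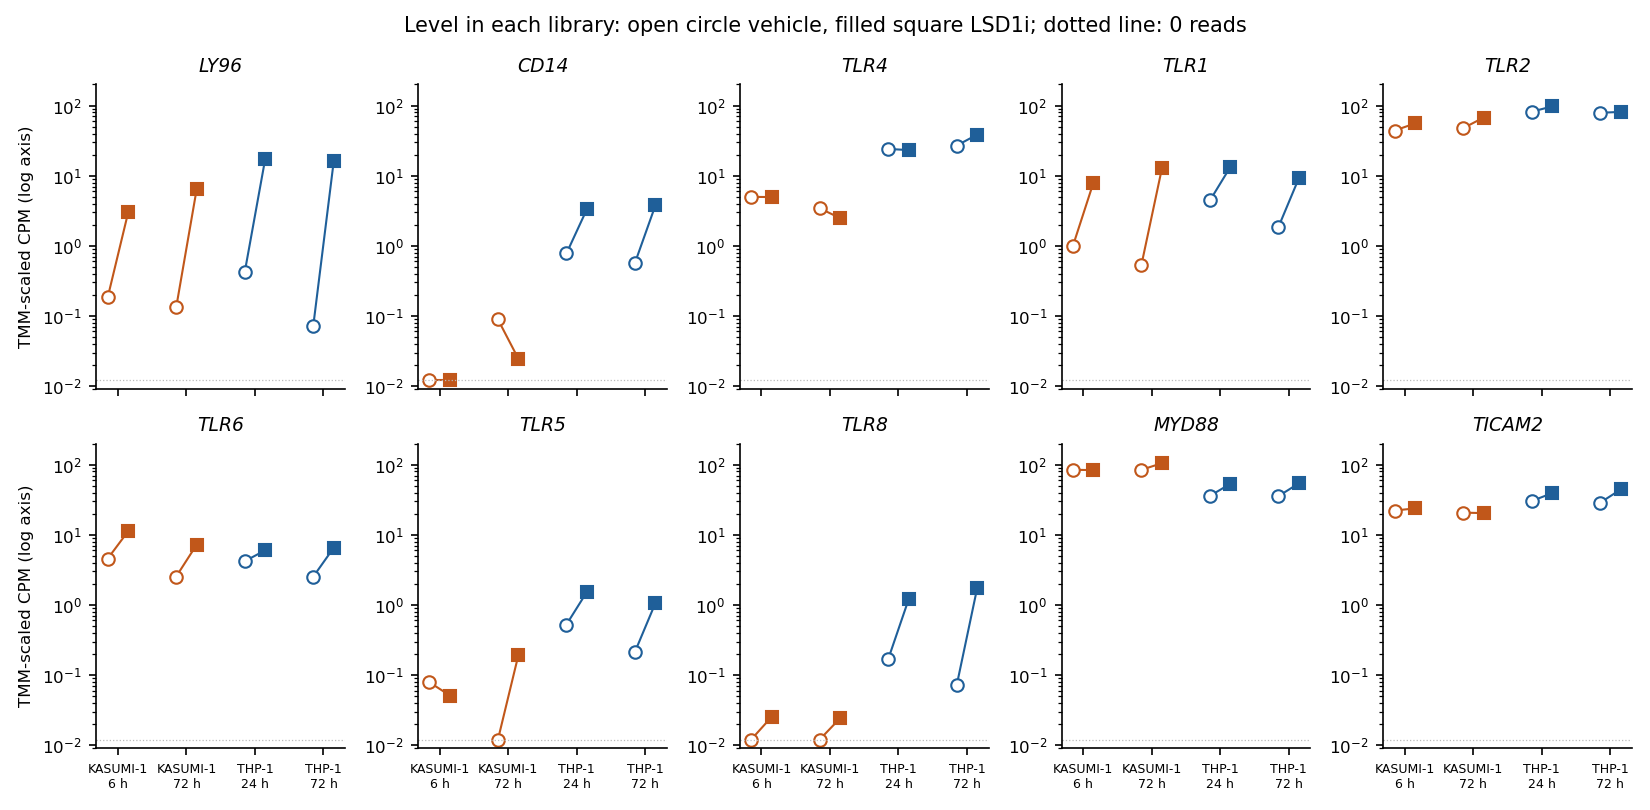
Level of each of the 10 genes in the 8 libraries, as CPM after TMM scaling on a log axis, 1 panel a gene, with a line joining the vehicle and inhibitor library of each pair. LY96 and TLR1 climb in all 4 pairs. CD14 and TLR8 exceed the floor of 3 reads only in THP-1, where CD14 is above it with vehicle too. TLR4 and TLR2 run nearly flat. The sloping CD14 line of KASUMI-1 at 72 h joins 2 reads and 1 read.

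Among the receptors for lipopeptides, TLR1 and TLR6 rose in both lines, and TLR2, the partner they share, rose in KASUMI-1 only by a change near the limit of the test. TLR1 (NCBI36 chr4:38474275-38482807, minus strand) had 38 reads (0.997 CPM) with vehicle and 314 reads (7.99 CPM) with inhibitor in KASUMI-1 at 6 h. At 72 h it had 12 reads (0.534 CPM) and 524 reads (12.8 CPM). In THP-1 it had 211 reads (4.43 CPM) and 601 reads (13.4 CPM) at 24 h, and 78 reads (1.85 CPM) and 329 reads (9.29 CPM) at 72 h. In each line both inhibitor libraries stood above both vehicle libraries. The pair ratios were 8.01 (5.71 to 11.5) and 23.9 (13.6 to 46.5) in KASUMI-1 at 6 and 72 h, and 3.03 (2.59 to 3.56) and 5.02 (3.91 to 6.51) in THP-1 at 24 and 72 h. The fitted change of TLR1 was 3.61 ± 0.30 in KASUMI-1 (edgeR, adjusted p = 7.28e-07) and 1.92 ± 0.24 in THP-1 (adjusted p = 2.66e-05), both kept under every alternative run.

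TLR6 (NCBI36 chr4:38504618-38507555, minus strand), the neighbour and close relative of TLR1, had 4.57 CPM with vehicle and 11.3 CPM with inhibitor in KASUMI-1 at 6 h, then 2.54 and 7.26 CPM at 72 h. In THP-1 it had 4.2 and 6.01 CPM at 24 h, then 2.52 and 6.55 CPM at 72 h. The inhibitor libraries lay above the vehicle libraries in both lines without overlap. Its fitted change was 1.39 ± 0.22 in KASUMI-1 (edgeR, adjusted p = 0.000848) and 0.92 ± 0.22 in THP-1 (adjusted p = 0.00892). The THP-1 call was lost without the 72 h pair (0.50, adjusted p = 0.641) and the fitted value was 1.36 without the 24 h pair. TLR1 and TLR6 are near copies in part of their sequence, and the header names no setting that counts multi-mapping reads, so both may be undercounted.

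TLR2 (NCBI36 chr4:154843472-154846688, plus strand) was the most abundant of the 6 Toll-like receptors in all 8 libraries, at 13.7 to 30.3 CPM per kilobase. LY96 came close to it in the THP-1 inhibitor libraries, with 29.7 and 27.4 CPM per kilobase beside 30.3 and 25.3 for TLR2. In CPM it had 44.1 with vehicle and 55.8 with inhibitor in KASUMI-1 at 6 h, then 47.6 and 67.6 at 72 h, and in THP-1 81.8 and 97.4 at 24 h, then 78.9 and 81.4 at 72 h. The groups did not overlap in KASUMI-1 and overlapped in THP-1. The fitted change was 0.42 ± 0.12 in KASUMI-1 (edgeR, adjusted p = 0.0357) and 0.15 ± 0.12 in THP-1 (adjusted p = 0.587). The KASUMI-1 call was lost when the KASUMI-1 72 h pair was dropped (0.33, adjusted p = 0.431), when the THP-1 pair of 24 h (adjusted p = 0.0699) or of 72 h (adjusted p = 0.0672) was dropped, with total counts in place of TMM (adjusted p = 0.0561) and with DESeq2 (adjusted p = 0.0507).

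The make-up of the lipopeptide receptors also differed between agents. TLR2 exceeded TLR1 per kilobase 39.1 times (28.4 to 55.5) with vehicle and 6.18 times (5.49 to 6.98) with inhibitor in KASUMI-1 at 6 h, and 78.8 times (44.9 to 153) and 4.69 times (4.27 to 5.16) at 72 h. In THP-1 the ratio was 16.3 and 6.42 at 24 h, and 37.7 and 7.76 at 72 h. The 4 inhibitor libraries thus spanned 4.69 to 7.76, a narrower range than the 16.3 to 78.8 of the vehicle libraries. TLR1 relative to TLR6 went from 0.225 to 0.731 and from 0.217 to 1.81 in the KASUMI-1 pairs, and from 1.09 to 2.31 and from 0.759 to 1.46 in the THP-1 pairs.

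**Figure D2:**
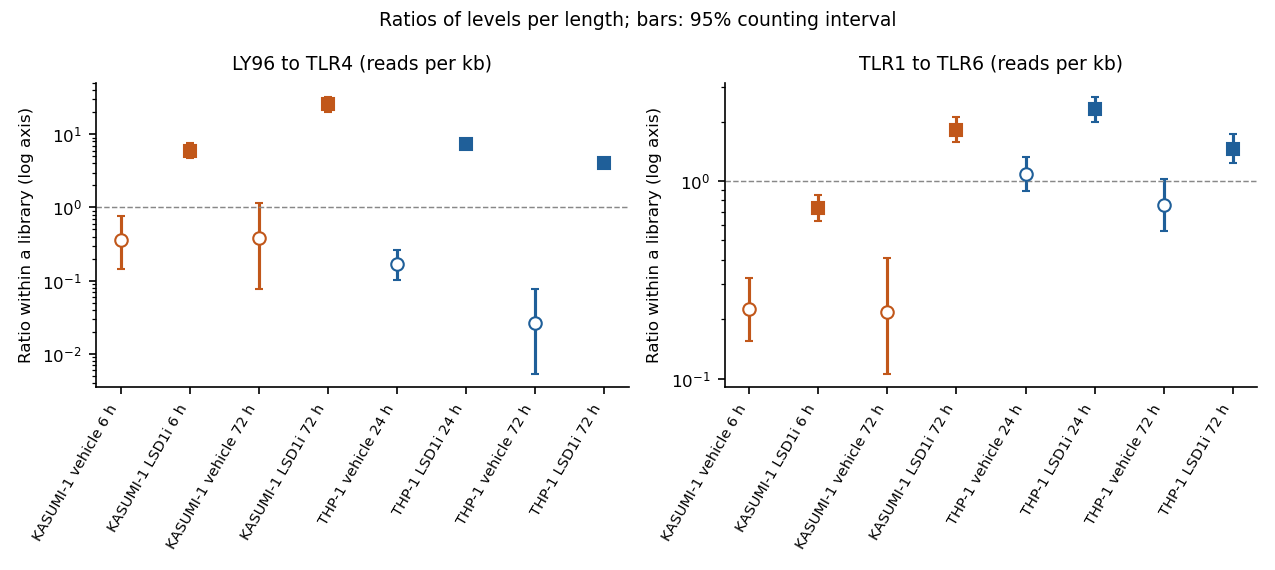
Ratios between receptor transcripts within each library, per kilobase on a log axis, with counting intervals; open points are vehicle and filled points inhibitor libraries. LY96 to TLR4 passes from under 1 to over 1 in all 4 pairs, and TLR1 to TLR6 is higher with inhibitor in all 4 pairs.

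TLR5 and TLR8 were scarce, and their changes were measured in THP-1. TLR8 (NCBI36 chrX:12834679-12851209, plus strand), the endosomal RNA sensor, had 8 reads (0.168 CPM) with vehicle and 54 reads (1.21 CPM) with inhibitor at 24 h, and 3 reads (0.0712 CPM) and 62 reads (1.75 CPM) at 72 h. TLR5 (NCBI36 chr1:221350207-221383247, minus strand), the flagellin receptor, had 25 reads (0.525 CPM) and 69 reads (1.54 CPM) at 24 h, and 9 reads (0.214 CPM) and 38 reads (1.07 CPM) at 72 h. Neither gene had overlapping agents in THP-1. The TLR8 ratios were 7.18 (3.40 to 17.5) and 24.6 (8.03 to 122), the latter resting on 3 vehicle reads, at the floor. Those of TLR5 were 2.94 (1.83 to 4.84) and 5.02 (2.39 to 11.8). The fitted changes were 3.53 ± 0.48 for TLR8 (edgeR, adjusted p = 7.22e-05) and 1.84 ± 0.42 for TLR5 (adjusted p = 0.00719). The TLR8 call was lost without the THP-1 72 h pair (2.81, adjusted p = 0.0505). The TLR5 call was lost without either THP-1 pair (2.29, adjusted p = 0.154 without 24 h, and 1.53, adjusted p = 0.346 without 72 h) and with DESeq2 (1.92, adjusted p = 0.342).

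In KASUMI-1, TLR8 had 0 reads in both vehicle libraries and 1 read in each inhibitor library, which is under the floor and allows no fold. TLR5 had 3 and 0 reads with vehicle and 2 and 8 reads with inhibitor at 6 and 72 h, and the counting interval of the ratio in the 72 h pair reached down to 0.934. Over both times TLR5 had 3 vehicle and 10 inhibitor reads, a ratio of 2.51 (0.647 to 14.2), so no change was detectable at this depth.

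The adaptors MYD88 and TICAM2 rose modestly in THP-1 and did not pass the test in KASUMI-1. MYD88 (NCBI36 chr3:38155009-38159514, plus strand) had 84.6 CPM with vehicle and 83.7 with inhibitor in KASUMI-1 at 6 h, then 84.6 and 105 at 72 h, and 35.9 and 53.5 CPM in THP-1 at 24 h, then 35.6 and 54.3 at 72 h. The THP-1 inhibitor libraries were close to each other and above both vehicle libraries, whereas in KASUMI-1 the groups overlapped. The fitted change was 0.59 ± 0.13 in THP-1 (edgeR, adjusted p = 0.00451) and 0.15 ± 0.13 in KASUMI-1 (adjusted p = 0.498). The THP-1 call was lost when either pair of that line was dropped (0.58, adjusted p = 0.13 for 24 h, and 0.56, adjusted p = 0.207 for 72 h).

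TICAM2 (NCBI36 chr5:114942238-114989757, minus strand) had 22.2 and 23.8 CPM in KASUMI-1 at 6 h, 20.7 and 20.4 at 72 h, 30.3 and 39.3 in THP-1 at 24 h, and 28.7 and 44.3 at 72 h, vehicle before inhibitor. The groups overlapped in KASUMI-1 and not in THP-1. The fitted change was 0.50 ± 0.13 in THP-1 (edgeR, adjusted p = 0.0231) and 0.04 ± 0.14 in KASUMI-1 (adjusted p = 0.906). The THP-1 call was lost when the pair of 24 h (0.60, adjusted p = 0.126) or of 72 h (0.36, adjusted p = 0.623) was dropped and with total counts (0.40, adjusted p = 0.106). The row counted under this name spans 47520 bases, whereas RefSeq's TICAM2 spans 23984 and the read-through TMED7-TICAM2 spans 47541. Of its 4 exon blocks, 3 lie beyond the TICAM2 span (28.1% of exon bases), and TMED7 has no row of its own, so reads of TMED7 and of TICAM2 cannot be told apart here.

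All 10 genes entered the test of 8 libraries, CD14, TLR8 and TLR5 through their THP-1 reads. LY96, TLR8 and TLR5 fell under the filter in the vehicle libraries alone. These genes thus entered through inhibitor libraries, where they were high, and the counts of calls that follow are not independent of that. The 10 genes were also chosen with earlier results of these data known. The counts therefore describe these genes and are no test of them as a set. In KASUMI-1, 4 of the 10 were called higher (LY96, TLR1, TLR6 and TLR2), where 7.02% of all genes tested were higher, 5.09% lower and 12.1% either. In THP-1, 8 of the 10 were called higher (all but TLR2 and TLR4), where 6.51% of all genes tested were higher, 2.85% lower and 9.36% either. At the level of single pairs, 3, 3, 5 and 6 of the 10 had at least a 2-fold higher level with a counting interval above 1, in KASUMI-1 at 6 and 72 h and THP-1 at 24 and 72 h. Restricted to genes at 2 CPM or more, these were 2 of 6, 3 of 7, 3 of 8 and 4 of 8, where 0.794%, 3.4%, 2.81% and 3.29% of all such genes were. In a fit without the block for pairs, the calls came to 2 of 10 in KASUMI-1 (LY96 and TLR1) and 4 of 10 in THP-1 (LY96, CD14, TLR1 and TLR8).

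**Figure D3:**
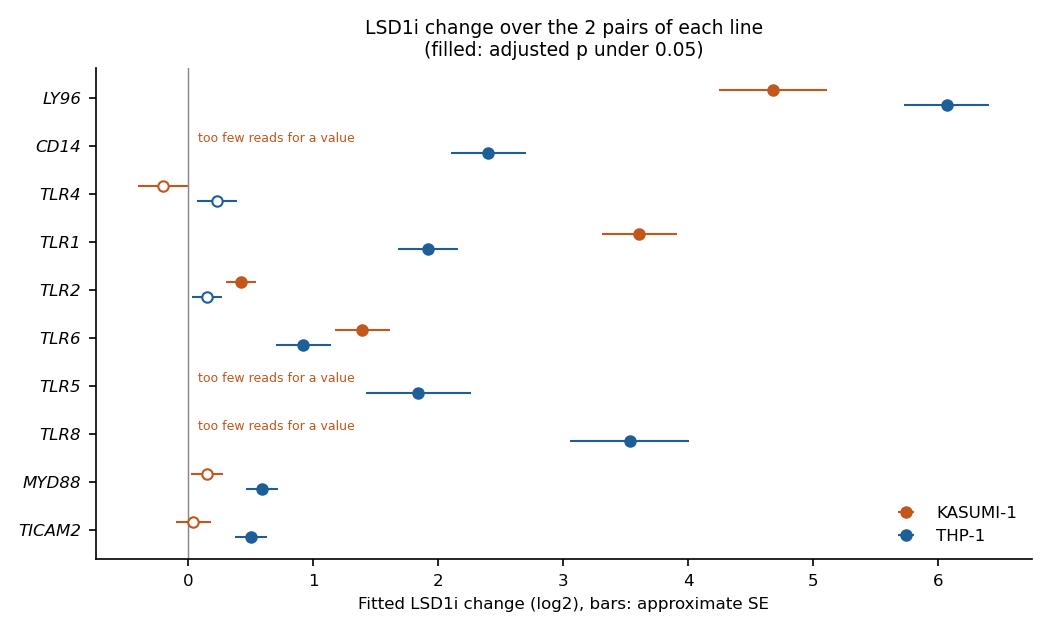
Fitted change with the inhibitor (log2) for each gene in KASUMI-1 and THP-1, with the approximate SE as bars and filled points where the adjusted p is under 0.05. LY96 lies highest in both lines, at 4.68 and 6.07, and TLR4 and TLR2 lie near 0; genes at or under the floor in KASUMI-1 carry no value there.

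Whether the response differed between the sensitive and the resistant line was tested directly. The earlier pair was taken at 6 h in KASUMI-1 and at 24 h in THP-1, so line and time are partly confounded in this test. With 1 line of each kind, sensitivity and other differences between the lines cannot be told apart. TLR1 alone of the 10 passed, with a smaller response in THP-1 (-1.69 ± 0.40, edgeR, adjusted p = 0.0196), where 2.62% of all genes tested were lower, 3.07% higher and 5.69% either. That call was lost when the KASUMI-1 72 h pair (-1.08, adjusted p = 0.0647) or the THP-1 24 h pair (-1.31, adjusted p = 0.269) was dropped, and the value was -2.66 without the KASUMI-1 6 h pair. LY96 differed by 1.39 ± 0.76 (adjusted p = 0.31), TLR6 by -0.47 ± 0.31 (adjusted p = 0.412) and TLR2 by -0.27 ± 0.17 (adjusted p = 0.393). For the adaptors, whose calls were in THP-1 alone, the difference was 0.44 ± 0.18 for MYD88 (adjusted p = 0.155) and 0.46 ± 0.19 for TICAM2 (adjusted p = 0.172), so a difference between lines was not shown. CD14, TLR5 and TLR8 had too few KASUMI-1 reads for this comparison.

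The lines also differed in vehicle, with times that match only at 72 h. This separate test covered 7 of the 10 genes, since LY96, TLR5 and TLR8 fell under its filter, and 6 of those 7 were called, 5 higher and 1 lower in THP-1, where 30.1% of all genes tested were higher, 26.4% lower and 56.5% either. TLR4 was higher in THP-1 by 2.59 ± 0.24 (edgeR, adjusted p = 6.89e-06), TLR1 by 1.99 ± 0.47 (adjusted p = 0.00416) and TLR2 by 0.82 ± 0.16 (adjusted p = 0.0015). CD14 had 61 vehicle reads in THP-1 and 2 in KASUMI-1, a ratio of 20.6 (5.46 to 174), and passed with adjusted p = 0.00118 in edgeR. TICAM2 was higher by 0.46 ± 0.17 (adjusted p = 0.0437), a call lost without any 1 of the 4 libraries (0.41 to 0.53, adjusted p of 0.0519 to 0.222). MYD88 was lower in THP-1, with -1.24 ± 0.16 (adjusted p = 8.63e-05), and TLR6 gave -0.09 ± 0.35 (adjusted p = 0.839).

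The 3 genes left out of that test had 23 and 10 vehicle reads in THP-1 and KASUMI-1 for LY96, a ratio of 1.55 (0.711 to 3.66), and 34 and 3 for TLR5, a ratio of 7.65 (2.41 to 38.9). TLR8 had 11 and 0 reads, and the counting interval of that ratio started at 1.69. With inhibitor, TLR1 reads in the lines came to a THP-1 to KASUMI-1 ratio of 1.11 (1.01 to 1.22), against 3.90 (2.88 to 5.38) with vehicle. For LY96 the ratio was 3.51 (3.14 to 3.95) with inhibitor, an interval that overlaps the vehicle one, and the test of the difference in response was not passed (1.39, edgeR, adjusted p = 0.31). In vehicle the order per kilobase in KASUMI-1 was MYD88, TLR2, TICAM2, TLR6, TLR4, then TLR1 and LY96, whose counts at 72 h were too low to be ordered, and in THP-1 TLR2, MYD88, TICAM2 and TLR4 led.

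The wider pathway was described by 71 genes in 7 lists, of which 69 could be tested. In KASUMI-1, 12 rose and 4 fell, and in THP-1, 17 rose, with the remaining 52 not passing. Over all genes tested, 7.02% were called higher and 5.09% lower in KASUMI-1, and 6.51% higher and 2.85% lower in THP-1. Each list below is to be read against these shares, since in lists of this size a count of 1 lies near them. The lists too were chosen with earlier results of these data known. Without the pair block, the calls on named pathway genes that remained were TRIM38 in KASUMI-1 and LY86, TIRAP, CCL2, TNF and IL1RN in THP-1. Their median fitted change was 0.14 in KASUMI-1 and 0.17 in THP-1, beside 0.02 and -0.01 over all genes tested. Among the 4 other Toll-like receptors, TLR3, the sensor of double-stranded RNA, passed in KASUMI-1, and none passed in THP-1. TLR3 entered the test only through the KASUMI-1 inhibitor libraries, where it was high, so its call is not independent of that. It had 7 and 0 vehicle reads and 27 and 31 inhibitor reads at 6 and 72 h in KASUMI-1 (2.68 ± 0.64, edgeR, adjusted p = 0.0118, lost without the 72 h pair at 1.88). In THP-1 it had 1 and 0 against 10 and 3 reads and was not called (adjusted p = 0.0773).

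Of 9 accessory receptors and chaperones, 1 rose and 1 fell in KASUMI-1, counts near the shares over all genes, and 3 rose in THP-1, where 6.51% of all genes did. LY86 (MD-1), a relative of LY96, rose by 1.16 ± 0.28 in KASUMI-1 (edgeR, adjusted p = 0.0133, lost without the 72 h pair at 0.38) and by 1.67 ± 0.18 in THP-1 (adjusted p = 5.59e-06). The KASUMI-1 call of LY86 was also lost with DESeq2 (adjusted p = 0.136). CD180, the receptor-like protein that LY86 partners, moved in opposite directions. It had 13 and 8.04 CPM with vehicle and inhibitor in KASUMI-1 at 6 h, 12.8 and 5.28 at 72 h, 4.43 and 7.80 in THP-1 at 24 h, and 4.87 and 11.6 at 72 h. All inhibitor libraries were under the vehicle libraries in KASUMI-1 and over them in THP-1. The fitted change was -0.97 ± 0.19 in KASUMI-1 (adjusted p = 0.00351, lost without the 72 h pair at -0.70) and 1.04 ± 0.19 in THP-1 (adjusted p = 0.00123, lost without the 72 h pair at 0.80), and the difference between lines was 2.01 ± 0.27 (adjusted p = 0.000258). CD36, a scavenger receptor, rose by 0.73 ± 0.15 in THP-1 (adjusted p = 0.00252, lost without the 72 h pair at 0.45).

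Of 12 adaptors and receptor-proximal kinases, 3 rose and 1 fell in KASUMI-1, where 7.02% and 5.09% of all genes did, and 1 rose in THP-1, near the share over all genes. TIRAP, which brings MYD88 to TLR2 and TLR4, rose by 0.57 ± 0.17 (edgeR, adjusted p = 0.0398) and 0.88 ± 0.15 (adjusted p = 0.000644) in KASUMI-1 and THP-1. Leaving out any 1 pair ended the KASUMI-1 call of TIRAP, and leaving out the 72 h pair ended that in THP-1. In KASUMI-1 the ubiquitin ligases PELI2 (1.21) and PELI1 (0.60) rose and TRAF3 (-0.54) fell, all 3 calls being lost without the KASUMI-1 72 h pair, where PELI2 was 0.62, PELI1 0.64 and TRAF3 -0.36. The calls of PELI2 and PELI1 were also lost with DESeq2 and without either THP-1 pair. PELI1 was lost without the 6 h pair, PELI2 with a minimum count of 30, and PELI2 and TRAF3 with total counts. A list of 12 genes covered the TAK1, IKK and TBK1 kinase complexes and the downstream kinases MAPK14 and MAPK8. Of these, 2 rose and 1 fell in KASUMI-1 and 3 rose in THP-1, beside 7.02%, 5.09% and 6.51% of all genes. The fitted changes of MAPK14 (p38) were 0.44 and 0.42, those of TAB2 were 0.38 and 0.44, IKBKE fell by 0.44 in KASUMI-1 and TANK rose by 0.58 in THP-1. Each of these calls was lost without the 72 h pair of its line. The THP-1 calls of MAPK14, TAB2 and TANK were also lost without the 24 h pair. In KASUMI-1, the calls of MAPK14 and IKBKE were also lost without either THP-1 pair. The TAB2 call there was lost in 8 of 10 alternatives. Total counts ended the calls of IKBKE, of TAB2 in both lines and of MAPK14 in THP-1. Of 9 NF-kB and interferon regulatory factors, IRF8 rose in KASUMI-1 (0.64) and IRF7 in THP-1 (0.84, lost without either THP-1 pair at 0.60 and 1.03), and the IRF8 call was lost without either KASUMI-1 pair. That 1 of 9 rose in each line is near the share over all genes.

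Among 13 inhibitors of the pathway, 2 rose and 1 fell in KASUMI-1 and 4 rose in THP-1, beside 7.02%, 5.09% and 6.51% of all genes. TRIM38, which restrains signalling downstream of these receptors, had 12.5 and 25.8 CPM with vehicle and inhibitor in KASUMI-1 at 6 h, then 11.1 and 25.6 CPM at 72 h. In THP-1 it had 18.0 and 17.0 CPM at 24 h, then 23.1 and 21.9 CPM at 72 h. It was higher by similar amounts in both KASUMI-1 pairs and stayed within overlapping levels in THP-1 (1.12 ± 0.15, edgeR, adjusted p = 0.000135, and -0.08 ± 0.14, adjusted p = 0.84), with a difference of -1.20 ± 0.20 (adjusted p = 0.0024). CYLD, a deubiquitinase, rose by 0.90 in KASUMI-1 (0.58 and not called without the 72 h pair) and 0.50 in THP-1 (lost without either pair). CD300A, an inhibitory receptor, rose by 1.01 in THP-1 (0.67 and not called without the 24 h pair), and NFKBIE fell by 0.55 in KASUMI-1 (lost without the 72 h pair and with total counts).

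Of 12 inflammatory outputs, 10 could be tested, and 2 rose in KASUMI-1 and 5 in THP-1, beside 7.02% and 6.51% of all genes. CCL2, the monocyte chemokine, had 1.93 CPM with vehicle and 22.1 CPM with inhibitor in THP-1 at 24 h, then 0.332 and 6.18 CPM at 72 h, and 3 reads in all in KASUMI-1. TNF, the inflammatory cytokine, had 2.14 and 11.3 CPM in THP-1 at 24 h, then 1.45 and 5.31 CPM at 72 h. The inhibitor levels of both genes in THP-1 were above all their vehicle levels. Fitted changes in THP-1 were 3.73 ± 0.25 for CCL2 (edgeR, adjusted p = 2.7e-08), 2.16 ± 0.24 for TNF (adjusted p = 7.16e-06), 2.24 ± 0.27 for ICAM1 (adjusted p = 1.7e-05) and 2.13 ± 0.16 for IL1RN, the interleukin 1 receptor antagonist (adjusted p = 7.25e-08). The ICAM1 call was lost without the pair block (adjusted p = 0.0667), and those of CCL2, TNF and IL1RN in THP-1 were kept in every alternative run. In KASUMI-1, IL1RN had 3 vehicle and 21 inhibitor reads, a ratio of 5.28 (1.58 to 27.6), called at adjusted p = 0.0397 and lost without the 72 h pair. That call was also lost with DESeq2, with total counts and without either THP-1 pair.

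**Figure D4:**
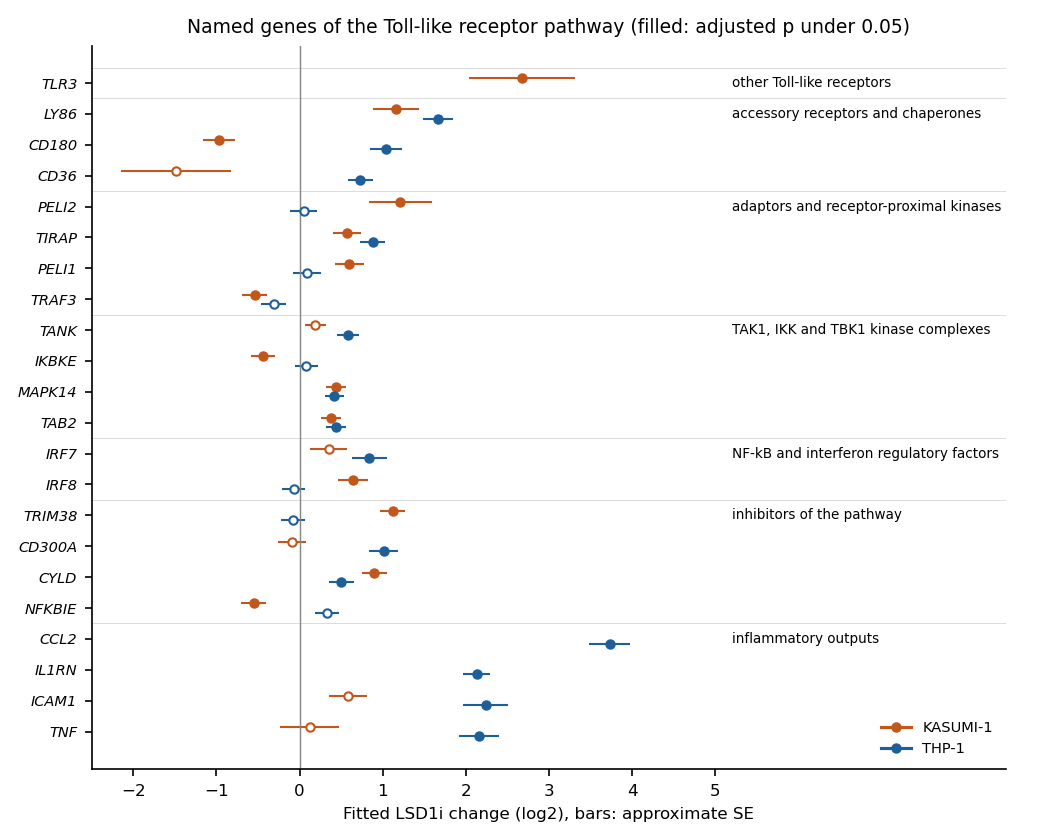
Fitted change with the inhibitor (log2) for the named genes of the 7 pathway lists, KASUMI-1 and THP-1, with the approximate SE as bars and filled points where the adjusted p is under 0.05. CD180 lies on opposite sides of 0 in the lines, at -0.97 and 1.04; TLR3 in THP-1 and CCL2 and IL1RN in KASUMI-1 are left out for having 3 reads or fewer on 1 side.

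The genes whose pattern over the 8 libraries was most like that of LY96 were GNG12 (Pearson r = 0.983), TRIM6-TRIM34 (0.977), CHST2 (0.976), CD86 (0.976) and SGCB (0.975), among 11014 genes with a mean of at least 2 CPM. Those most like CD14 were FCAMR (0.997), CTSZ (0.993), RPL39L (0.990), EPB41L3 (0.989) and VCAN (0.989). These coefficients are descriptions over libraries that share line, agent, time and depth, and for CD14 they are set largely by 4 KASUMI-1 libraries that lie near 0.

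With time in culture, TLR6 was at least 1.5-fold lower at 72 h than at the earlier time, with a counting interval under 1, in both vehicle series and in KASUMI-1 with inhibitor. The same fall was met by TLR1 in THP-1 vehicle and by TLR4 in KASUMI-1 with inhibitor. LY96 and TLR5 met it in THP-1 vehicle at levels under 2 CPM. Among all genes at 2 CPM or more such a fall held for 4.1% in KASUMI-1 vehicle, 2.68% in KASUMI-1 with inhibitor, 1.76% in THP-1 vehicle and 3.15% in THP-1 with inhibitor. These are single libraries with no replicate and no test.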

How the data were processed

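The authors deposited whole-number read counts per gene name for 8 libraries, made with featureCounts 1.5.2 over exons of Ensembl gene models on NCBI36 (hg18), with no strand or multi-mapping option, per the file headers. The exon length used for levels per kilobase, a value of another kind, is the deposited length per the file headers. TopHat2 2.0.10 and FastQC 0.10.0 are named in the submitters' processing notes.

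Counts were analysed with edgeR 4.0.16 in R 4.3.3: TMM scaling, filterByExpr with a minimum count of 10 (16060 genes), and the quasi-likelihood F-test with a block per pair and 1 inhibitor coefficient per line, which leaves 2 residual degrees of freedom. The spread of each gene is drawn towards that of all genes with a median prior of 15.6 degrees of freedom. The p-values thus rest mostly on spread shared over genes. The pairs come from the labels, which give each inhibitor library a vehicle library of the same line and time. The approximate SE is the absolute log2 change divided by the square root of F. Vehicle libraries were fitted separately (15456 genes, 2 residual degrees of freedom). Pair ratios use the scaled library sizes with exact conditional binomial 95% intervals, and PCR duplicates are not marked, so they cover counting error only. Levels of 3 reads or fewer are treated as at or under the floor.

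The 10 genes, the pathway lists and the tests were chosen with earlier results of these data known. Named pathway genes are up to 4 per list, those called with the largest absolute fitted value in either line. Promoters come from RefSeq (GRCh38.p14) and were matched by symbol. On counts simulated for the THP-1 comparison over 16060 genes, 96.9% of 96 genes changed by log2 1 and 100% of 104 changed by log2 2 were recovered. The simulation gave every gene the same dispersion and every library the same mean profile, and changed only genes with a mean above 2 CPM. It therefore does not cover genes under that mean, such as CD14, TLR5 and TLR8, or responses that vary between pairs. Alternatives were RLE factors, total counts, DESeq2 1.42.0, no filter, a minimum count of 30, no block, and leaving out each pair or vehicle library.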

Additional observations from a re-analysis of the deposited data

Results flagged for a closer look

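Among the 10 genes and the 69 pathway genes tested, 8 differed between the lines in the direct test of the inhibitor response (edgeR, THP-1 minus KASUMI-1, log2), beside 5.69% of all genes. That test sets pairs of 6 and 72 h in KASUMI-1 against pairs of 24 and 72 h in THP-1, so line and time are partly confounded. TLR1 gave -1.69 (adjusted p = 0.0196), with a rise in both lines that was larger in KASUMI-1. CD180 gave 2.01 (adjusted p = 0.000258), falling in KASUMI-1 and rising in THP-1 in 2 of 2 pairs each. TRIM38 gave -1.20 (adjusted p = 0.0024), with a rise in KASUMI-1. TNF gave 2.04 (adjusted p = 0.0102), ICAM1 1.67 (adjusted p = 0.0122) and CD300A 1.10 (adjusted p = 0.0126), with rises in THP-1. NFKBIE gave 0.89 (adjusted p = 0.0182), with a fall in KASUMI-1. IL1B, named here after its values were seen, gave 1.28 ± 0.28 (adjusted p = 0.0149), with a rise in THP-1. Without the THP-1 24 h pair the difference was no longer called for TLR1 (-1.31), TNF, ICAM1, CD300A (0.77), NFKBIE (0.60) and IL1B (1.06), without the KASUMI-1 72 h pair for TLR1 (-1.08), and without the THP-1 72 h pair for IL1B (1.44). With total counts the calls of CD300A (adjusted p = 0.0548) and NFKBIE (adjusted p = 0.0751) were lost, and without the pair block those of all 8 genes.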

How the results depend on the processing

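Of 19 calls on the 10 genes, 10 were kept in every alternative and 9 were lost in 1 or more; in the responses, LY96 and TLR1 in both lines and CD14 in THP-1 were kept in all. Without the block for pairs the genes called went from 1945 to 100 in KASUMI-1, from 1503 to 454 in THP-1 and from 914 to 22 for the difference, and the calls among the 10 genes from 4 to 2, from 8 to 4 and from 1 to 0. Leaving out 1 pair gave 306 to 2741, 386 to 2211 and 166 to 1705 genes, and 3 to 4, 3 to 8 and 0 to 1 of the 10. A line left with 1 pair is then assumed to vary like the other line. Total counts gave 1204 genes in KASUMI-1 and DESeq2 gave 990 in THP-1. With total counts the median of all genes was -0.10 in THP-1, -0.14 for the difference and 0.23 in vehicle. The share of calls that were higher went from 58% to 73.7% (total counts) or 44.9% (DESeq2) in KASUMI-1, from 69.6% to 59.1% (total counts) in THP-1, from 53.9% to 29.1% or 65.7% for the difference, and from 53.3% to 65.3% (total counts) in vehicle.

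Fitted values that changed sign were ones not called, and the cause was not tested. Leaving out 1 pair gave these ranges in KASUMI-1: TICAM2 -0.02 to 0.09, MYD88 -0.02 to 0.32, TLR5 -0.61 to 5.95, CD300A -0.2 to 0.02, TNF -0.39 to 0.5 and CCL2 0 to 4.71. In THP-1 they were TLR4 -0.07 to 0.5, PELI2 -0.09 to 0.15, IKBKE -0.13 to 0.24 and IRF8 -0.3 to 0.13. For the difference they were TLR5 -4.12 to 2.43, TLR8 -0.32 to 1.49, TLR3 -4.39 to 1.99, LY86 -0.25 to 1.29, TAB2 0 to 0.12, MAPK14 -0.09 to 0.06, CCL2 -0.99 to 3.72 and IL1RN -4.27 to 0.48. In vehicle TLR6 ran from -0.49 to 0.41 without 1 library. With total counts the sign also changed for PELI2 (-0.05), PELI1 (-0.01) and IKBKE (-0.02) in THP-1, TAB2 (-0.05) for the difference and TLR6 (0.14) in vehicle. MAPK14 gave 0.01 with RLE and with DESeq2, and CCL2 gave 1.66 with DESeq2, both for the difference. In KASUMI-1, CD14, TLR5 and TLR8 are limited by depth.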

Other observations

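Several of these genes had other levels at 72 h than at the earlier time in vehicle, counted in single libraries with no replicate, and the values are ratios of 72 h to the earlier time with counting intervals and no test. TLR6 stood at 0.556 (0.405 to 0.753) in KASUMI-1 and 0.599 (0.469 to 0.762) in THP-1, and TLR1 at 0.536 (0.255 to 1.05) and 0.418 (0.318 to 0.544). LY96 in THP-1 went from 20 reads to 3, a ratio of 0.17 (0.0323 to 0.572). Both TLR2 and MYD88 lay between 0.965 and 1.08 in both lines.

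With inhibitor the same ratio for LY96 was 2.16 (1.73 to 2.70) in KASUMI-1 and 0.921 (0.825 to 1.03) in THP-1. TLR1 stood at 1.60 (1.39 to 1.84) and 0.692 (0.603 to 0.793), and TLR4 at 0.501 (0.390 to 0.640) in KASUMI-1 and 1.66 (1.53 to 1.81) in THP-1. The earlier time was 6 h in KASUMI-1 and 24 h in THP-1, so the lines cannot be compared on this measure. The THP-1 ratio of 227 for LY96 at 72 h thus joins an inhibitor level much like that at 24 h to a vehicle level of 3 reads.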
